A study of Homo sapiens with 9 samples.

Results

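The histone deacetylase (HDAC) genes HDAC1, HDAC2, HDAC3, HDAC4, HDAC5, HDAC6, HDAC7, HDAC8, HDAC9 and HDAC11 were followed across A549 cells, a human lung adenocarcinoma line, with and without depletion of Cyclin K. They were taken by symbol from the gene tables, and the family below means these 10 genes, without HDAC10. All 10 were found, among 31080 annotated gene features in all. Each gene had a feature of its own and all 10 passed the filter on low values. RNA was sequenced from 9 libraries, 48 h after siRNA transfection. Of these, 3 had received scrambled siRNA, 3 siCyclin K#1 and 3 siCyclin K#2, the last a pair of separate siRNAs against the transcript of Cyclin K, a cyclin that works with transcriptional kinases. The values are FPKM, fragments scaled to exon length and to library size. The depth recovered from the FPKM steps lay between 31333749 and 33767961 reads per library. Nothing in the labels says that the 3 libraries of a group came from separate cultures, so the p-values measure the spread between these libraries only. In tests over both siRNAs, which join the siRNA libraries in 1 group, that spread includes the difference between the siRNAs.

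Histone deacetylases remove acetyl groups from lysines of histones and other proteins, which on histones generally goes with less accessible chromatin and lower transcription. Class I enzymes (HDAC1, HDAC2, HDAC3 and HDAC8) are mainly nuclear, and all but HDAC8 act inside large corepressor complexes. Class IIa enzymes (HDAC4, HDAC5, HDAC7 and HDAC9) have little deacetylase activity of their own, bind MEF2 transcription factors and shuttle between nucleus and cytoplasm. HDAC6 (class IIb) is a cytoplasmic tubulin deacetylase, and HDAC11 is the only class IV member and removes fatty acyl groups.

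HDAC1 and HDAC2 are closely related enzymes that often sit in the same complexes, and their transcripts behaved differently here, so the start regions of both are shown. The sequences are RefSeq windows on GRCh38.p14, from 250 bases before to 50 bases after an annotated start, read along the gene's strand. The HDAC1 window is chr1:32291833-32292132, plus strand. The HDAC2 window is chr6:113971099-113971398, minus strand, and lies inside the gene span of the deposited tables, which reaches position 114011308. Capitals mark the letters of GC boxes (GGGCGG or its complement CCGCCC) and of CCAAT boxes (CCAAT or ATTGG), searched on both strands with overlaps allowed.
HDAC1: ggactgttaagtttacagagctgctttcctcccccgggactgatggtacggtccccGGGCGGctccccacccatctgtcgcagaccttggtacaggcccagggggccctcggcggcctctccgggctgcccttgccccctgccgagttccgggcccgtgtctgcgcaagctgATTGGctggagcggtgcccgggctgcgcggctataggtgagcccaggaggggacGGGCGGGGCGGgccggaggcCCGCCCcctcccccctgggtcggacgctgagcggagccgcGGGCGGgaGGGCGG
HDAC2: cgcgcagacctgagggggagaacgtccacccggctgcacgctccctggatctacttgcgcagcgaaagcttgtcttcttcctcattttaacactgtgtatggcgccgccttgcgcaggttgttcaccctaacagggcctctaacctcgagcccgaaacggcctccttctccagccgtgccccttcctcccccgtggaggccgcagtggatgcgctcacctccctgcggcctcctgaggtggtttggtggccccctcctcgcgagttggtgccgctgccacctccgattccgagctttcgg
The HDAC1 window held 6 GC boxes and 1 CCAAT box, and these letters were not found in the HDAC2 window. GC content was 73.7% in the HDAC1 window and 64% in the HDAC2 window, against a median of 58.7% over 35116 windows of the same length. A GC box was present in 45.0% of all windows and a CCAAT box in 34.6%. Over the family, 9 of the 10 genes had windows, all but HDAC5. Of the 19 windows 8 held a GC box (42.1%), 6 a CCAAT box (31.6%) and none the letters TATAAA, which 11.5% of all windows held. Of the other genes that rose in the test below, the HDAC3 window held 3 GC boxes and the HDAC7 and HDAC8 windows 0. A window of HDAC4 held 1 and a window of HDAC9 held 3, and their other windows 0. Of the genes that did not pass, the HDAC11 window held 5 and the HDAC6 windows 2, 1 and 4. The HDAC7 window ends at position 47820153, inside a gene span that reaches 47833132. Whether the letters go with the changes was not tested. The presence of such letters is a description of the sequence and not a binding site.

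The depletion was checked first. CCNK, which encodes Cyclin K, was at 6.90, 7.06 and 7.10 FPKM in the scrambled libraries, at 0.891, 0.816 and 0.720 FPKM in the siCyclin K#1 libraries, and at 0.809, 0.920 and 0.802 FPKM in the siCyclin K#2 libraries. The siRNA groups thus held 11.5% and 12.0% of the scrambled mean, and no siRNA library overlapped the scrambled ones. Over both siRNAs the log2 fold change was -2.94 (SE 0.10, limma, adjusted p = 1.74e-07). CCND1, which encodes Cyclin D1, fell from 72.5 ± 0.546 FPKM (SD, n = 3) to 16.7 ± 0.329 FPKM with siCyclin K#1 and to 20.7 ± 0.685 FPKM with siCyclin K#2. Over both siRNAs its log2 change came to -1.96 (SE 0.10, adjusted p = 1.24e-06). KRT8 and KRT18, keratins of this epithelial line, were at 49.7 FPKM or more in every library. KRT8 rose over both siRNAs (log2 0.80, SE 0.11, adjusted p = 0.000384). KRT18 was lower with siCyclin K#1 (log2 -0.17, SE 0.04, adjusted p = 0.00905). It did not pass with siCyclin K#2 (log2 0.12, adjusted p = 0.0563) or over both siRNAs (log2 -0.03, adjusted p = 0.871). CDH1, which encodes E-cadherin, had means of 1.64 FPKM in scrambled, 3.88 FPKM in siCyclin K#1 and 1.71 FPKM in siCyclin K#2 libraries, and rose for siCyclin K#1 (log2 1.17, SE 0.25, adjusted p = 0.00428). EPCAM, KRT19, NKX2-1, SFTPB and SFTPC, markers of airway and alveolar epithelium, were at 0.279 FPKM or less.

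After Cyclin K depletion 7 of the 10 HDAC genes rose and none fell. HDAC5, HDAC9 and HDAC1 rose most, HDAC3, HDAC8, HDAC4 and HDAC7 rose by smaller amounts, and HDAC2, HDAC6 and HDAC11 did not pass the test. The test was limma on log2(FPKM + 0.1) over 21048 genes, with a gene called at a Benjamini-Hochberg adjusted p under 0.05. All genes tested give the background for these counts, with 17.0% called higher and 11.5% called lower. The median log2 fold change was 0.45 over the HDAC genes and 0.06 over all genes tested. In all 7 risen genes each of the 6 siCyclin K libraries lay above each of the 3 scrambled libraries, which held for 18.9% of all genes tested, and 13.7% showed the reverse, which no HDAC gene did. The exact two-sided permutation test of 6 against 3 libraries gave p = 0.0238 for each of these 7 genes, the smallest value that design allows. Since these are bulk libraries and FPKM is a share of each library, a change in the RNA content per cell and a change in the make-up of the culture cannot be told apart.

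**Figure D1:**
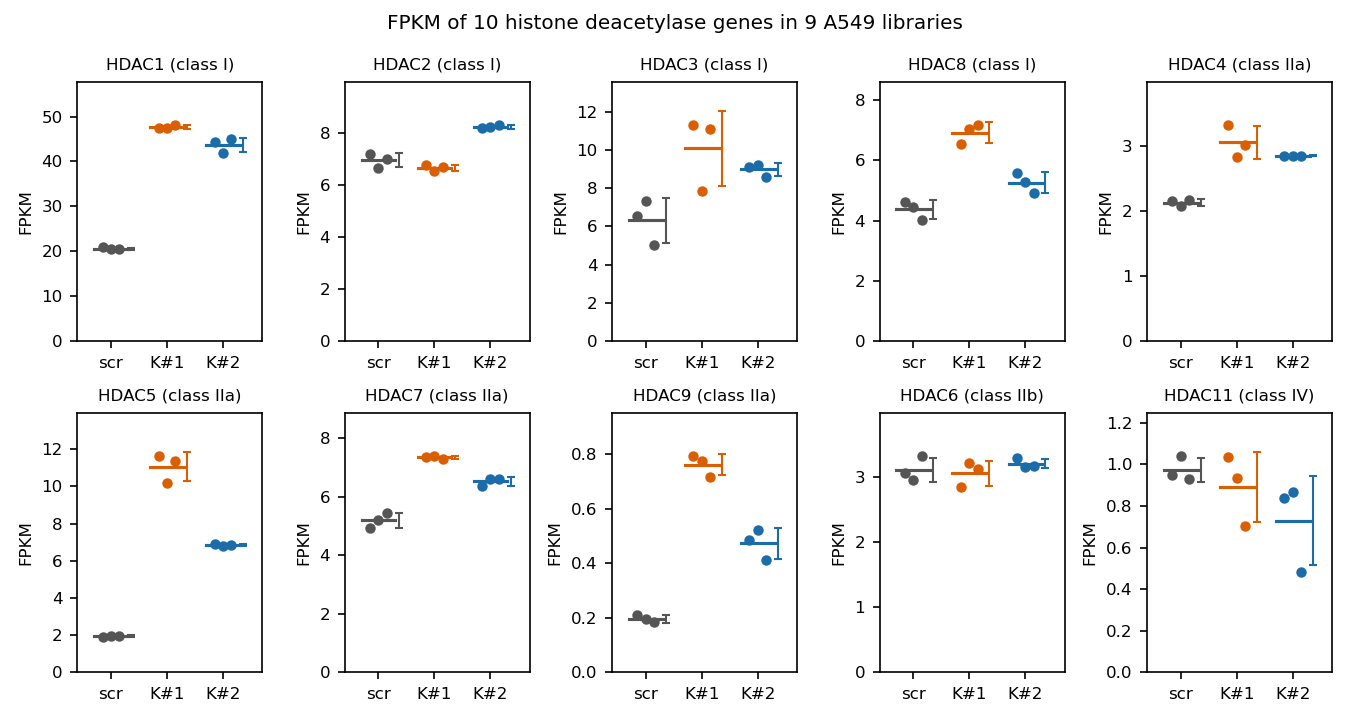
FPKM (vertical axes, each from 0) of the 10 HDAC genes in 9 libraries: scrambled (scr, gray), siCyclin K#1 (K#1, orange) and siCyclin K#2 (K#2, blue), with points for libraries, lines for group means and bars for ± 1 SD. The siRNA points lie above the scrambled points for HDAC1, HDAC3, HDAC8, HDAC4, HDAC5, HDAC7 and HDAC9, while HDAC6 overlaps in all groups.

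Each siRNA was also set against the scrambled libraries on its own, in a fit of all 9 libraries. With siCyclin K#1, 7 HDAC genes rose and none fell, against 26.8% of all genes higher and 18.1% lower. With siCyclin K#2, 8 rose and none fell, against 19.8% higher and 15.2% lower, the added gene being HDAC2. Both comparisons use the same scrambled libraries. The median log2 fold change of the 10 genes was 0.58 with siCyclin K#1 and 0.36 with siCyclin K#2, beside 0.10 and 0.01 over all genes tested. Under the rule in the study's methods, a fold change over 3 with p under 0.01 (taken here as unadjusted), only HDAC5 was called. This held over both siRNAs (1.43% of all genes higher), with siCyclin K#1 (3.19%) and with siCyclin K#2 (1.08%). For its count of changed genes the study's results text names a fold of at least 2. With a fold change over 2 in place of 3, HDAC1, HDAC5 and HDAC9 were called over both siRNAs (5.49% of all genes) and with siCyclin K#1 (9.03%), and HDAC1 and HDAC5 with siCyclin K#2 (4.45%).

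**Figure D2:**
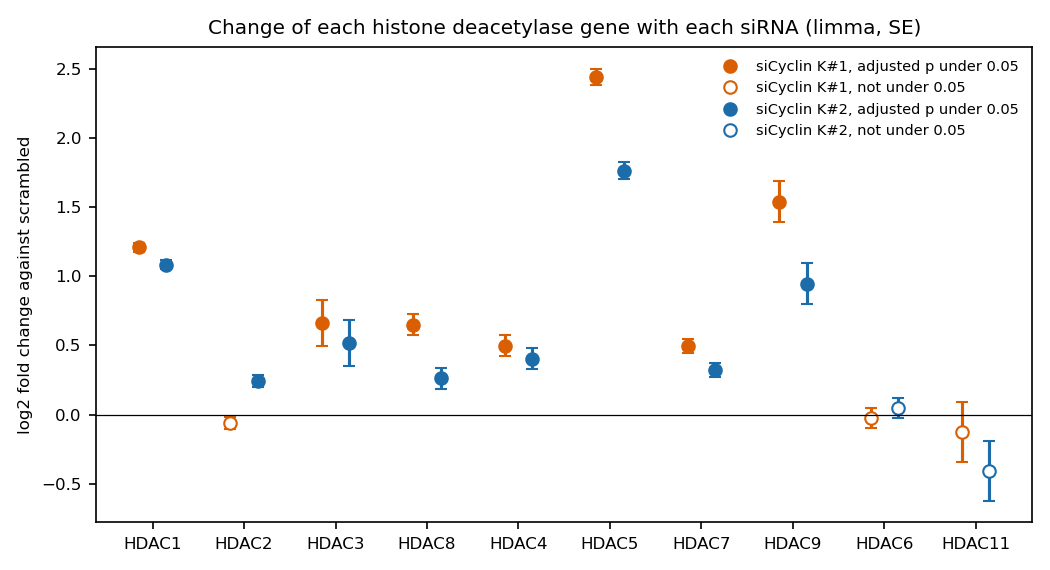
Log2 fold change of each HDAC gene (vertical axis, log2(FPKM + 0.1) scale) with siCyclin K#1 (orange) and siCyclin K#2 (blue) against the same 3 scrambled libraries, with SE from limma, and filled points for adjusted p under 0.05. HDAC5 reaches 2.44 and 1.76, and HDAC6 and HDAC11 have open points with both siRNAs.

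HDAC1, the catalytic subunit of the SIN3, NuRD and CoREST corepressor complexes, had the highest FPKM of the HDAC genes in every library. FPKM divides by exon length. On the joined exons of GENCODE release 29, HDAC2 (3277 to 3750) and HDAC8 (3008 to 3590) came out with more reads than HDAC1 in the scrambled libraries. The lengths used for HDAC2 and HDAC8 differed from that release, so their reads are approximate and the order by reads is not settled. HDAC1 lies at chr1:32292086-32333635 on the plus strand (GRCh38). It was at 20.8, 20.4 and 20.5 FPKM in the scrambled libraries, at 47.5, 47.4 and 48.2 FPKM in the siCyclin K#1 libraries, and at 44.4, 41.9 and 44.9 FPKM in the siCyclin K#2 libraries. All siRNA libraries stood far above the narrow scrambled range, and the siCyclin K#1 libraries lay above the siCyclin K#2 ones without overlap. The log2 fold change was 1.15 over both siRNAs (SE 0.06, adjusted p = 1.48e-06), 1.21 with siCyclin K#1 and 1.08 with siCyclin K#2. These values rest on 2577 to 2787 reads per scrambled library and 5515 to 6294 reads per siRNA library. Of the 50-base windows of HDAC1 transcripts, 0.212% occurred in another gene, the pseudogene HDAC1P2.

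HDAC2, the close relative of HDAC1, did not follow it. It was at 7.18, 6.65 and 7.01 FPKM in the scrambled libraries, at 6.76, 6.53 and 6.67 FPKM in the siCyclin K#1 libraries, and at 8.18, 8.21 and 8.31 FPKM in the siCyclin K#2 libraries. The siCyclin K#1 libraries overlapped the scrambled ones and the siCyclin K#2 libraries lay above both. Over both siRNAs the log2 difference was 0.09, with a 95% interval from -0.14 to 0.32 (adjusted p = 0.559). HDAC2 rose with siCyclin K#2 by 0.24 on the log2 scale (SE 0.05, adjusted p = 0.00296), while the difference with siCyclin K#1 was -0.06 (SE 0.05, adjusted p = 0.316). With the libraries rescaled by median ratios, or by quantiles, HDAC2 was lower with siCyclin K#1 and passed the test (log2 -0.18 and -0.16, adjusted p = 0.0157 and 0.0228). The ratio of HDAC1 to HDAC2 FPKM was 2.96 ± 0.0922 (SD, n = 3) in scrambled, 7.17 ± 0.120 with siCyclin K#1 and 5.31 ± 0.179 with siCyclin K#2. It is a ratio of FPKM values, so its size depends on the exon lengths used, but its change between groups does not.

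HDAC3 is the catalytic subunit of the NCoR corepressor complex. It was at 6.57, 7.36 and 5.04 FPKM in the scrambled libraries, at 11.3, 7.84 and 11.1 FPKM in the siCyclin K#1 libraries, and at 9.12, 9.25 and 8.61 FPKM in the siCyclin K#2 libraries. The lowest siRNA library, replicate 2 of siCyclin K#1, stood just above the highest scrambled library, so the groups were apart by a small margin. The log2 fold change was 0.59 over both siRNAs (SE 0.15, adjusted p = 0.0138), 0.66 with siCyclin K#1 (SE 0.17, adjusted p = 0.0103) and 0.52 with siCyclin K#2 (SE 0.17, adjusted p = 0.0401). Without scrambled replicate 3 the call over both siRNAs was lost (log2 0.44, adjusted p = 0.0695). The siCyclin K#2 call was lost when scrambled replicate 1 or 3 or any siCyclin K#2 library was left out, with adjusted p between 0.0699 and 0.117. It was also lost with no filter on low values (0.0594), under median-ratio (0.0587) or quantile rescaling (0.0864), without the trend in the variance prior (0.0663) and with replicate as a blocking term (0.0703). An antisense gene, AC008781.1, covers 9.20% of the HDAC3 exons, and the strand setting of the counting is not given in the sources used here, so its reads could not be separated.

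HDAC8 deacetylates SMC3 of the cohesin complex and acts outside the corepressor complexes. It was at 4.62, 4.45 and 4.03 FPKM in the scrambled libraries, at 6.53, 7.04 and 7.19 FPKM in the siCyclin K#1 libraries, and at 5.60, 5.27 and 4.91 FPKM in the siCyclin K#2 libraries. The 3 groups did not overlap, with siCyclin K#1 highest and scrambled lowest. The log2 fold change was 0.65 with siCyclin K#1 (SE 0.07, adjusted p = 0.000108) and 0.26 with siCyclin K#2 (SE 0.07, adjusted p = 0.0236). Over both siRNAs it was 0.46 (SE 0.13, adjusted p = 0.0283), a call lost without any 1 of the scrambled libraries or without siCyclin K#1 replicate 1 (adjusted p between 0.0517 and 0.113), under quantile normalization (0.0725) and with replicate as a blocking term (0.0657). The siCyclin K#2 call was lost without scrambled replicate 3 or without siCyclin K#2 replicate 1 or 2 (adjusted p between 0.0606 and 0.0783), and under median-ratio or quantile rescaling (0.0565 and 0.138). The gene AL133500.1 shares 5.19% of the HDAC8 exonic bases on the same strand.

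HDAC5, a class IIa corepressor of MEF2 factors whose nuclear export is set by phosphorylation, had the largest change of the family. The gene lies at chr17:44076746-44123702 on the minus strand. It was at 1.89, 1.98 and 1.98 FPKM in the scrambled libraries, at 11.6, 10.2 and 11.4 FPKM in the siCyclin K#1 libraries, and at 6.93, 6.83 and 6.84 FPKM in the siCyclin K#2 libraries. The 3 groups stood far apart, with little spread inside each. The log2 fold change was 2.10 over both siRNAs (SE 0.20, adjusted p = 5.83e-05), 2.44 with siCyclin K#1 (SE 0.06) and 1.76 with siCyclin K#2 (SE 0.06). In the order of rises over both siRNAs HDAC5 was at place 89 of 21048 genes, while HDAC1 was at place 1068. The reads behind HDAC5 rose from between 481 and 490 in the scrambled libraries to between 1660 and 2867 in the siRNA libraries.

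HDAC9, the class IIa member best known from muscle, was the lowest of the 10 in each group mean. It was at 0.211, 0.194 and 0.184 FPKM in the scrambled libraries, at 0.793, 0.776 and 0.718 FPKM in the siCyclin K#1 libraries, and at 0.484, 0.524 and 0.411 FPKM in the siCyclin K#2 libraries. The 3 groups did not overlap. On the log2(FPKM + 0.1) scale the fold change was 1.24 over both siRNAs (SE 0.22, adjusted p = 0.00234), 1.54 with siCyclin K#1 and 0.95 with siCyclin K#2. The pseudocount shrinks the change of so low a gene. As a ratio of mean FPKM, HDAC9 was 3.88 times the scrambled level with siCyclin K#1 and 2.41 times with siCyclin K#2. About 100 to 120 reads stood behind each scrambled value.

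HDAC4, a class IIa member that recruits HDAC3 with its corepressors, was at 2.16, 2.07 and 2.16 FPKM in the scrambled libraries, at 3.33, 2.83 and 3.02 FPKM in the siCyclin K#1 libraries, and at 2.85, 2.85 and 2.86 FPKM in the siCyclin K#2 libraries. The siRNA groups lay above scrambled and overlapped each other. The log2 fold change was 0.45 over both siRNAs (SE 0.09, adjusted p = 0.00375), 0.50 with siCyclin K#1 and 0.40 with siCyclin K#2. HDAC7, a class IIa member of endothelial and lymphoid cells that is also transcribed in this epithelial line, was at 4.93, 5.20 and 5.43 FPKM in the scrambled libraries, at 7.36, 7.38 and 7.29 FPKM in the siCyclin K#1 libraries, and at 6.35, 6.61 and 6.59 FPKM in the siCyclin K#2 libraries. The 3 groups did not overlap. For HDAC7 the log2 change was 0.41 over both siRNAs (SE 0.08, adjusted p = 0.00353), 0.49 with siCyclin K#1 and 0.32 with siCyclin K#2. An antisense gene, AC004466.1, covers 9.70% of the HDAC7 exons.

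HDAC6, the tubulin and cortactin deacetylase, did not pass the test in any comparison. It was at 3.05, 2.94 and 3.31 FPKM in the scrambled libraries, at 2.84, 3.21 and 3.11 FPKM in the siCyclin K#1 libraries, and at 3.28, 3.15 and 3.17 FPKM in the siCyclin K#2 libraries. All 3 groups overlapped. The log2 difference over both siRNAs was 0.01 (adjusted p = 0.939), with a 95% interval from -0.18 to 0.20. Its sign turned under median-ratio rescaling, quantile normalization and the recovered reads, with no call under any of them. HDAC11 was at 0.949, 1.04 and 0.928 FPKM in the scrambled libraries, at 1.04, 0.933 and 0.706 FPKM in the siCyclin K#1 libraries, and at 0.839, 0.866 and 0.482 FPKM in the siCyclin K#2 libraries. The siCyclin K#2 libraries lay below the scrambled ones, but they were spread wider than their distance to them. The log2 difference over both siRNAs was -0.27 (adjusted p = 0.376), with a 95% interval from -0.73 to 0.20, and with siCyclin K#2 it was -0.41 (adjusted p = 0.193).

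The size of the effect was not the same for the siRNAs. In the direct comparison of siCyclin K#1 with siCyclin K#2, 5 HDAC genes were higher with siCyclin K#1 and 1 was lower, against 17.1% and 12.3% of all genes tested. The higher genes were HDAC5 (log2 0.68, SE 0.06, adjusted p = 6.16e-05), HDAC9 (0.59, SE 0.15, adjusted p = 0.0159), HDAC8 (0.39, SE 0.07, adjusted p = 0.00427), HDAC7 (0.17, SE 0.05, adjusted p = 0.0329) and HDAC1 (0.13, SE 0.03, adjusted p = 0.0214). HDAC2 was lower by 0.30 on the log2 scale (log2 -0.30, SE 0.05, adjusted p = 0.00112). The 95% intervals of the genes that did not pass were -0.23 to 0.53 for HDAC3, -0.07 to 0.26 for HDAC4, -0.23 to 0.10 for HDAC6 and -0.22 to 0.78 for HDAC11. CCNK itself did not pass between the siRNAs (log2 -0.06, SE 0.10, adjusted p = 0.726). The HDAC7 call was lost when any 1 of the 6 siRNA libraries was left out (adjusted p between 0.0615 and 0.0946). The HDAC1 call was lost without siCyclin K#1 replicate 3 (0.0665) or siCyclin K#2 replicate 2 (0.0616), and the HDAC9 call without siCyclin K#1 replicate 1 (0.0539), siCyclin K#1 replicate 2 (0.0504) or siCyclin K#2 replicate 3 (0.0553). Median-ratio rescaling left neither HDAC1 (adjusted p = 0.328) nor HDAC7 (0.181) called, and neither passed without the trend in the variance prior (0.125 and 0.0649). The HDAC7 call was also lost with replicate as a blocking term (0.0529), and the HDAC9 call under quantile normalization (0.0892).

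The order of levels within the family shifted with depletion. FPKM is scaled to exon length, and the recovered reads fit the length of all annotated exons joined for HDAC1, HDAC3, HDAC5, HDAC6 and HDAC7. For HDAC2, HDAC8 and HDAC9 the length used is not known. Their joined exons in GENCODE release 29 are long (HDAC8 22986 bases, HDAC9 16827 and HDAC2 15461, beside 3963 for HDAC1). On such lengths these genes would read lower beside HDAC1 than per mRNA. In FPKM as deposited the scrambled order was HDAC1, HDAC2, HDAC3, HDAC7, HDAC8, HDAC6, HDAC4, HDAC5, HDAC11 and HDAC9. The neighbours whose ranges overlapped were HDAC2 with HDAC3 and HDAC3 with HDAC7. HDAC5 moved from place 8 in scrambled (1.95 ± 0.0517 FPKM, SD, n = 3) to place 2 with siCyclin K#1 (11.1 ± 0.771 FPKM), where it overlapped with HDAC3, and to place 4 with siCyclin K#2 (6.86 ± 0.0566 FPKM). HDAC2 moved from place 2 to place 6 with siCyclin K#1, where it overlapped with HDAC8, and to place 3 with siCyclin K#2. HDAC1 stayed first, and HDAC9 stayed last with a range that overlapped HDAC11 in both siRNA groups.

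The summed FPKM of the 10 genes was 51.7 ± 1.06 (SD, n = 3) in scrambled, 97.5 ± 2.98 with siCyclin K#1 and 86.8 ± 1.28 with siCyclin K#2. HDAC1 made up 39.7% ± 0.721 of that sum in scrambled, 48.9% ± 1.27 with siCyclin K#1 and 50.3% ± 1.27 with siCyclin K#2. Without HDAC1 the sum was still higher, with 31.2 ± 0.969 in scrambled, 49.8 ± 2.71 with siCyclin K#1 and 43.1 ± 0.819 with siCyclin K#2. The share of HDAC2 was 13.4% ± 0.620 in scrambled, 6.82% ± 0.114 with siCyclin K#1 and 9.48% ± 0.166 with siCyclin K#2. The class IIa sum was 2.35 times the scrambled mean with siCyclin K#1 and 1.76 times with siCyclin K#2, and the class I sum 1.87 and 1.73 times. Within class IIa the leading transcript by FPKM changed, with HDAC5 at 20.6% ± 0.337 of the class in scrambled, 49.8% ± 1.43 for siCyclin K#1 and 41.1% ± 0.556 for siCyclin K#2. HDAC7 made up 54.8% ± 1.02, 33.1% ± 1.58 and 39.0% ± 0.685 of it in the same order. By reads, HDAC5 led HDAC7 in the siCyclin K#1 libraries (2432 to 2867 against 2295 to 2385). In the siCyclin K#2 libraries HDAC7, over longer joined exons, had more reads (2027 to 2180 against 1660 to 1727). These sums and shares are descriptions, and the groups did not overlap in any of the values given here except the HDAC1 share between the siRNA groups.

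**Figure D3:**
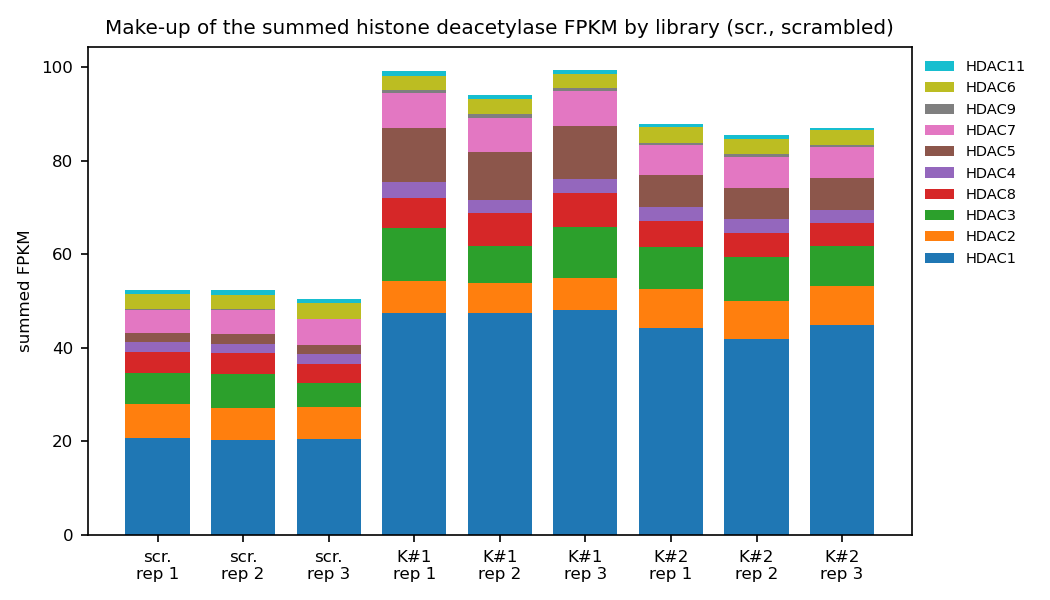
Summed FPKM (vertical axis, from 0) of the 10 HDAC genes in each of the 9 libraries, with a colored segment for each gene, in replicates of scrambled (scr.), siCyclin K#1 (K#1) and siCyclin K#2 (K#2). The bars reach 50.5 to 52.4 in scrambled, 94.1 to 99.4 in the siCyclin K#1 libraries and 85.5 to 88.0 in the siCyclin K#2 libraries, and the HDAC1 and HDAC5 segments widen.

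Genes that work with the HDACs were taken as 11 lists with 93 entries, of which 86 features were tested. YWHAH and KAT2A, as well as TUBA1A with TUBA1B, were counted in features that join neighbouring genes, and none of these passed over both siRNAs. Over both siRNAs 35 were higher and 7 lower, beside 17.0% and 11.5% of all genes. With siCyclin K#1 the counts were 43 and 15, beside 26.8% and 18.1% of all genes, and with siCyclin K#2 they were 40 and 10, beside 19.8% and 15.2%. The share of lower genes in the lists was thus near that of all genes with siCyclin K#1. The median log2 fold change over both siRNAs was 0.19 in these lists and 0.45 over the HDAC genes.

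Among the complexes that carry HDAC1 and HDAC2, CoREST, which pairs them with the demethylase KDM1A, had the highest median (log2 1.00 over both siRNAs). Over both siRNAs 5 of its 9 genes were higher and 0 lower, beside the same 17.0% and 11.5% of all genes. KDM1A itself did not pass over both siRNAs (log2 -0.12, SE 0.07, adjusted p = 0.226) or with either one. For siCyclin K#1 alone 6 rose and 1 fell, beside 26.8% and 18.1%. The lower gene was the scaffold RCOR1, with means of 14.3 FPKM in scrambled, 5.24 FPKM in siCyclin K#1 and 14.6 FPKM in siCyclin K#2 libraries (log2 -1.43 with siCyclin K#1, SE 0.05, adjusted p = 1.10e-07). RCOR1 did not pass over both siRNAs (log2 -0.70, SE 0.41, adjusted p = 0.239). HMG20B, a DNA-binding subunit, was at 6.40, 6.47 and 6.47 FPKM in scrambled, at 21.6, 20.6 and 17.8 FPKM in the siCyclin K#1 libraries, and at 18.3, 21.0 and 17.9 FPKM in the siCyclin K#2 libraries (log2 1.58 over both, SE 0.08, adjusted p = 1.55e-06). ZMYM3, a zinc finger partner of the complex, had a log2 fold change of 1.43 (SE 0.11, adjusted p = 1.51e-05). The siRNA groups of both genes lay above scrambled without overlap. RCOR2, a CoREST scaffold, was at 0.703, 0.665 and 0.766 FPKM in scrambled, and its rise was 1.94 with siCyclin K#1 (SE 0.11) and 0.75 with siCyclin K#2 (SE 0.11) on the log2 scale. Over both siRNAs it was 1.35 (SE 0.35, adjusted p = 0.0163), a call lost without scrambled replicate 1 (0.0559) or 2 (0.0608). These 3 of the 9 genes rose past a fold change of 3 with siCyclin K#1, beside 3.19% of all genes. None of them did so over both siRNAs or with siCyclin K#2, where HMG20B was at log2 1.55 and ZMYM3 at 1.27. With siCyclin K#1 HMG20B (log2 1.61) and ZMYM3 (1.59) lay close to the cut. Leaving out 1 library took each as low as 1.55, which is below it.

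The counts that follow are over both siRNAs unless a siRNA is named, and stand beside the 17.0% of all genes higher and 11.5% lower. In the SIN3 list 6 of 13 tested genes were higher and 3 lower. The largest rises were ARID4A (log2 0.76) and ING2 (0.68), a histone-reading subunit, and the largest falls were BRMS1L (-1.13) and SAP30L (-0.73). In NuRD, the nucleosome remodeling complex with HDAC1 and HDAC2, 5 of 11 were higher and 1 lower. Its remodeling ATPase CHD3 rose most (log2 1.25, SE 0.10, adjusted p = 1.59e-05), followed by GATAD2A (0.77), while MTA2 fell by 0.36 on the log2 scale (log2 -0.36). The other ATPase, CHD4, shared a joined feature with NOP2, and MBD3 one with UQCR11, so neither could be read alone. Both features are among the 11, and neither passed. In MiDAC and MIER complexes, which also hold HDAC1 or HDAC2, 1 of 6 rose (MIER1, 0.37) and 1 fell (MIER3, -0.87), which is near the share of all genes. MIER2 was lower with siCyclin K#1 alone (log2 -1.27, SE 0.09, adjusted p = 5.23e-06).

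The partners of HDAC3 and of class IIa came next. In the list of NCoR complex genes 3 of 4 tested were higher over both siRNAs, beside 17.0% of all genes. TBL1X led them (log2 0.76, SE 0.16, adjusted p = 0.00623). Of 15 tested MEF2 factors, 14-3-3 proteins and kinases that act on class IIa enzymes, 4 were higher and 0 lower over both siRNAs, beside 17.0% and 11.5% of all genes. In the average from a fit with 3 groups 7 were higher and 1 lower, beside 24.9% and 18.2% of all genes in that fit. For siCyclin K#1 alone the counts were 8 up and 2 down, beside 26.8% and 18.1%, and for siCyclin K#2 alone 6 up and 3 down, beside 19.8% and 15.2%, so the lower counts were near the shares of all genes. SIK1, a kinase that phosphorylates class IIa HDACs, had a log2 fold change of 1.18 over both siRNAs (SE 0.22, adjusted p = 0.00291). The 14-3-3 gene YWHAB had one of 1.06 (SE 0.31, adjusted p = 0.0287). That call was lost without any 1 of the scrambled libraries or without siCyclin K#1 replicate 1 or 3 (adjusted p between 0.0503 and 0.0965). YWHAB passed with siCyclin K#2 (log2 1.25, adjusted p = 0.0250). It did not pass with siCyclin K#1 (log2 0.87, adjusted p = 0.0806), where its range overlapped the scrambled one. CTTN, which encodes the HDAC6 substrate cortactin, passed over both siRNAs (log2 1.19, SE 0.15, adjusted p = 0.000292). It was 1 of 6 tested substrates called there, near the 17.0% of all genes, while 2 were higher and 1 lower in the average from the fit with 3 groups (24.9% and 18.2% of all genes). Taken by siRNA, 1 substrate rose and 2 fell for siCyclin K#1, beside 26.8% and 18.1%, and 3 rose and 0 fell for siCyclin K#2, beside 19.8% and 15.2%.

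The enzymes and readers on the other side of acetylation were also counted. Of 11 tested lysine acetyltransferases 6 were higher and 0 lower over both siRNAs, beside 17.0% and 11.5% of all genes, with the largest rises in NCOA3 (log2 1.16, SE 0.11) and KAT2B (0.99, SE 0.08). Taken for siCyclin K#1 alone, 6 rose and 2 fell, HAT1 (log2 -0.55, SE 0.06) and KAT8 (-0.50, SE 0.07), beside 26.8% and 18.1%, so the lower count was near the share of all genes. BRD3, a reader of acetylated histones from the BET list, was higher (log2 0.93, SE 0.07, adjusted p = 1.06e-05). Of 6 tested sirtuins, the NAD-dependent deacetylases, 2 were higher and 1 lower over both siRNAs, again beside 17.0% and 11.5%. SIRT4, a mitochondrial sirtuin, was at 1.91, 1.90 and 1.72 FPKM in scrambled, at 0.581, 0.418 and 0.720 FPKM in the siCyclin K#1 libraries, and at 0.255, 0.296 and 0.950 FPKM in the siCyclin K#2 libraries. It fell over both siRNAs (log2 -1.72, SE 0.33, adjusted p = 0.00362), past a fold change of 3 over both (0.865% of all genes lower) and with siCyclin K#2 (0.860%). When 1 library was left out, the change over both siRNAs ran from -1.88 to -1.57, and its weak end was short of that cut. With siCyclin K#2 it ran from -2.37 to -1.59, with its weak end close to the cut. Of the genes known to respond to HDAC inhibitors, H1F0 was lower (log2 -0.48, SE 0.06) over both siRNAs. CDKN1A, the cell cycle inhibitor p21, moved in opposite directions, higher with siCyclin K#1 (log2 0.48, SE 0.07, adjusted p = 0.000506) and lower with siCyclin K#2 (log2 -0.88, SE 0.07, adjusted p = 2.04e-05). It did not pass over both in the fit with 2 groups (log2 -0.20, adjusted p = 0.742), and passed as lower in the average from the fit with 3 groups.

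**Figure D4:**
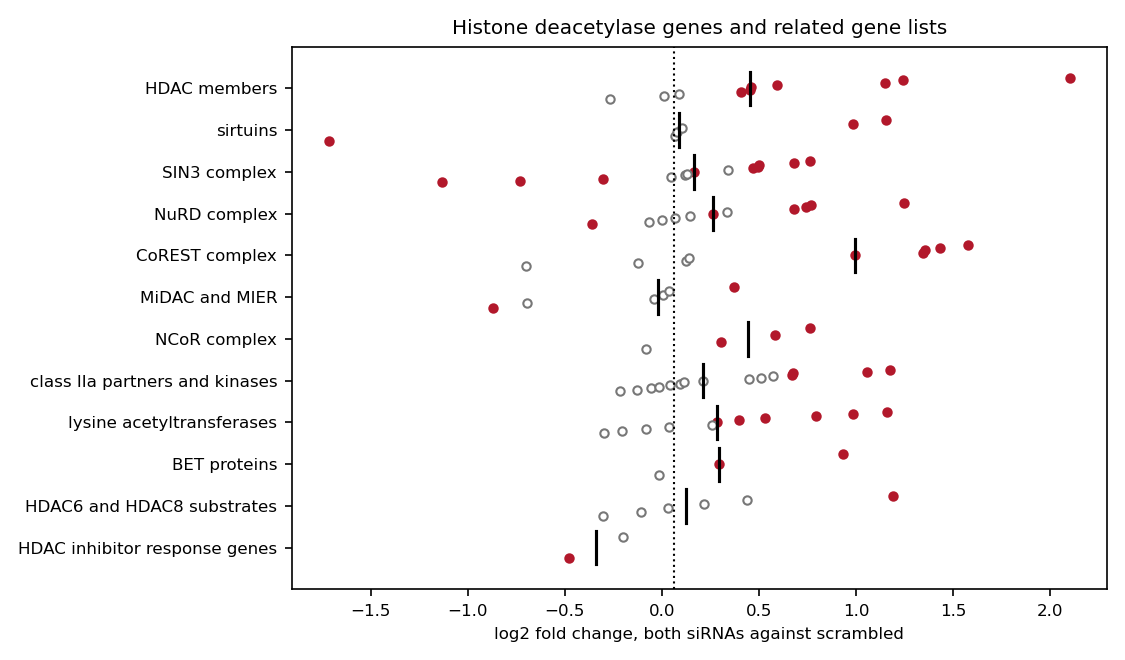
Log2 fold change over both siRNAs (horizontal axis) of each tested gene in the HDAC family and in 11 related lists, with red points for adjusted p under 0.05, open points for the others, a black bar for the list median and a dotted line for the median of all genes tested (0.06). The HDAC points run from -0.27 to 2.10, and the CoREST median stands at 1.00.

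Among the genes whose profiles lay nearest to HDAC1 over the 9 libraries, by the root mean square distance of log2 values set to the scrambled mean, were EIF3F, DPH3, TSC22D4 and BMPR2, at distances of 0.048 to 0.064 among 11243 genes compared. EIF3F, a translation initiation factor subunit, had means of 5.69 FPKM in scrambled, 13.7 FPKM in siCyclin K#1 and 12.3 FPKM in siCyclin K#2 libraries. The genes nearest to HDAC5 were KIAA1522, SOX12, RFX3, CYP24A1 and GRIK2, at distances of 0.062 to 0.14. CYP24A1, the vitamin D 24-hydroxylase, had means of 12.7, 73.7 and 48.1 FPKM in the same order. These genes were picked for their likeness, so their values describe it and no test was made.

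Other features of the libraries moved with the groups. The mitochondrial genes held 25.7% to 26.4% of the FPKM in scrambled, 24.7% to 25.1% in the siCyclin K#1 libraries and 22.5% to 23.0% in the siCyclin K#2 libraries, and the part of this in the HDAC values was not tested. The summed FPKM of 8 epithelial markers was 132 to 152 in scrambled, 160 to 187 in the siCyclin K#1 libraries and 186 to 193 in the siCyclin K#2 libraries, with KRT18 the most abundant in scrambled and KRT8 in every siRNA library. The summed FPKM of 7 NRF2 target genes was 1205 to 1248 in scrambled, 1713 to 1845 in the siCyclin K#1 libraries and 1675 to 1846 in the siCyclin K#2 libraries. Of the 7, ALDH1A1 was the most abundant, while GPX2 had means of 0.468, 0.907 and 0.973 FPKM in the same order. Over both siRNAs 5 of these 7 were higher and 1 lower, beside 17.0% and 11.5% of all genes, with the largest rise in ALDH3A1 (log2 1.84, SE 0.22). The lower one was a feature that joins AKR1B10 with AKR1B15 (log2 -1.01, SE 0.13). The part of these lists in the HDAC values was not tested. Of 5 fibroblast and muscle markers 3 were tested. COL1A1 and ACTA2 were higher with each siRNA, beside 26.8% of all genes for siCyclin K#1 and 19.8% for siCyclin K#2. PDGFRB did not pass with either. In the fit over both siRNAs ACTA2 passed (log2 2.29, adjusted p = 0.00743) and COL1A1 did not (log2 1.68, adjusted p = 0.0580). The summed FPKM of the list was 2.46, 2.74 and 2.63 in scrambled, 19.0, 19.8 and 18.9 in the siCyclin K#1 libraries, and 4.88, 4.58 and 4.64 in the siCyclin K#2 libraries. COL1A1 was the most abundant of them in every library, while COL1A2 and COL3A1 were at 0.023 FPKM or less throughout. The source of these changes was not tested. CD68 was the only leukocyte marker above 0.1 FPKM (30.0 to 39.0), and PTPRC was at 0.007 FPKM or less. Means of CD68 were 30.3 FPKM in scrambled, 32.2 FPKM in siCyclin K#1 and 37.9 FPKM in siCyclin K#2 libraries. CD68 was higher with siCyclin K#2 (log2 0.32, SE 0.04, adjusted p = 0.000238) and did not pass with siCyclin K#1 (log2 0.09, adjusted p = 0.0967). Endothelial markers summed to at most 0.275 FPKM in any library.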

How the data were processed

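Total RNA of A549 cells was sequenced as paired reads. The authors made the gene tables with StringTie 1.3.3b, and the deposited values are FPKM, taken as given. The aligner and the annotation release are not given in the sources used here. Of 33065 gene identifiers, 32512 have the coordinates of GENCODE release 29 (GRCh38). Rows of 1 reference gene were summed. FPKM carries no counts, but low values were whole multiples of a step, which gave the depths: 94.8% of nonzero values under 20 reads came out whole within 0.05. For HDAC2, HDAC4, HDAC8, HDAC9 and HDAC11 exon lengths differed, so their reads are approximate. Whether a step is a read or a fragment is not stated.

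Genes that reached FPKM 0.1 in 3 or more libraries entered limma 3.58.1 (R 4.3.3, eBayes with trend) on log2(FPKM + 0.1), with Benjamini-Hochberg adjustment over 21048 genes. Both siRNAs against scrambled used 2 groups, and other comparisons 3 groups and all 9 libraries. The fit was checked on simulated data. Exact permutation tests used scipy 1.17.1. RefSeq start windows (GRCh38.p14) were matched by symbol. The HDAC genes and lists were chosen with earlier results of these data known. The text names all 10 HDAC genes, CCNK and CCND1, list genes past a fold change of 3 at p under 0.01 or otherwise the 2 largest rises and 2 largest falls that passed, and the 5 nearest profiles to HDAC1 and HDAC5. CDKN1A, CHD4, KDM1A, RCOR1, MIER2, HAT1, KAT8, genes of joined features and marker genes were named after their values were seen. Listed symbols with no row used here were left out, and some genes that the rule names are not reported here.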

Additional observations from a re-analysis of the deposited data

Results flagged for a closer look

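The effects of the siRNAs differed by the direct test between them for 6 HDAC genes, each at 3 against 3 libraries and adjusted p under 0.05 in limma. With siCyclin K#1 minus siCyclin K#2 on the log2(FPKM + 0.1) scale, the differences were 0.68 for HDAC5, 0.59 for HDAC9, 0.39 for HDAC8, 0.17 for HDAC7, 0.13 for HDAC1 and -0.30 for HDAC2. The groups did not overlap in any of the 6, and the exact two-sided permutation test gave p = 0.1 for each, the smallest that 3 against 3 libraries allow. HDAC2 was the only one of them whose siCyclin K#1 and siCyclin K#2 values lay on different sides of the scrambled mean.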

How the results depend on the processing

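The values were recomputed under 20 other settings. HDAC1, HDAC4, HDAC5, HDAC7 and HDAC9 kept their rise over both siRNAs in each setting that tested them (a filter at a mean FPKM of 1 left HDAC9 out). The number of HDAC genes called lay between 5 and 7 over both siRNAs, between 6 and 8 for either siRNA alone, and between 4 and 6 in the direct comparison. The number past a fold change of 3 became 2 with voom on recovered reads, over both siRNAs and for siCyclin K#1, HDAC9 being the added gene, and 0 for siCyclin K#2 at a pseudocount of 1. With a fold change over 2 it was 3, 3 and 2 in that order.

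Signs turned only where the main difference was not called. For HDAC6 over both siRNAs the log2 difference became -0.0699 with median-ratio rescaling, -0.119 with quantile normalization and -0.0075 with recovered reads, and ran from -0.0243 to 0.0581 when 1 library was left out. For siCyclin K#2 it became -0.00185 and -0.0488 under the same rescalings, and for siCyclin K#1 it ran from -0.0578 to 0.028 when 1 library was left out. HDAC11 with siCyclin K#1 ran from -0.232 to 0.016 in the same way, and CCNK between the siRNAs from -0.121 to 0.016. HMG20B between the siRNAs became -0.00425 with median-ratio rescaling. The cause was not tested. The median log2 change of all genes for siCyclin K#1 was 0.10 as deposited, 0.000894 after median-ratio rescaling and -0.0188 after quantile normalization.

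Replicate numbers did not pair the libraries (correlation of same-numbered deviations from -0.0711 to 0.0379). With the replicate block 6 HDAC genes were called over both siRNAs, 7 for each siRNA alone and 5 in the direct comparison, and CCNK stayed at -2.94. HDAC9 and HDAC11, near 100 reads in some libraries, have the least depth of the family.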
